A study of Saccharomyces cerevisiae with 8 samples.

Results

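The nuclear genes for the F1 head and the stalks of yeast ATP synthase were examined in WT and pbp1Δ cells of Saccharomyces cerevisiae, in 8 poly-A RNA-seq libraries. They were taken by name from the table of normalized counts (reads per gene divided by a single factor for each library). This gave 9 genes of the 5774 listed, and all 9 were among the 5759 genes tested. The groups were pbp1Δ and WT cells 3 h after a switch from glucose medium (YPD) to lactate medium (YPL), and pbp1Δ and WT cells in log phase in YPD, with 2 biological replicates each. All cells were prototrophic CEN.PK, a laboratory strain background. In the pbp1Δ strain the PBP1 gene was replaced by a hygromycin resistance cassette, and WT is listed as MATa, while the mating type of pbp1Δ is not given in the sources used here. PBP1 encodes the yeast relative of human ataxin-2, and the study asked how its loss affects transcripts for mitochondrial biogenesis.

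ATP synthase makes ATP in the mitochondrial inner membrane. Protons that flow through the membrane part (Fo) turn a ring and the central stalk, and the turning stalk drives ATP formation in the F1 head. The peripheral stalk holds the head still against this rotation. In yeast the head and both stalks are made from nuclear genes, while core subunits of the membrane part are encoded in mitochondrial DNA. Glucose represses many genes of respiration, and lactate can be used for energy only through respiration.

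In lactate medium, all 9 transcripts rose in both genotypes, 2.80-fold to 4.17-fold in pbp1Δ cells and 2.47-fold to 4.10-fold in WT cells. Between pbp1Δ and WT cells, none of the 9 differed past the test in either medium. The lowest estimate in both media was that of ATP14, a peripheral stalk subunit. In the same cells, 3 genes for factors that assemble the F1 head and 1 gene for a factor that supports a mitochondrially encoded subunit were lower in pbp1Δ cells in YPL.

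Puf3, an RNA-binding protein, recognizes a short element after the coding region of many transcripts for mitochondrial proteins. The letters TGTANATA were searched on the gene strand within 200 nt after the stop codon, since the study concerns targets of Puf3. They occurred in 834 of 5753 genes (14.5%), and ATP1 was the only 1 of the 9 subunit genes with a match. In a window of 300 nt ATP5 and ATP14 matched as well, so that 3 of 9 held the letters, against 16.7% of all genes. Of the 13 listed assembly and expression factors of ATP synthase, 10 held the letters within 200 nt, among them the 4 that were lower in pbp1Δ cells in YPL. So did 3 of the 5 listed membrane subunits, ATP18, ATP19 and TIM11. Between pbp1Δ and WT cells 0 of these 3 were called in either medium (4.69% of all genes in YPL and 0.972% in YPD). Their log2 fold changes of pbp1Δ over WT cells were -0.38, -0.27 and -0.18 in YPL and -0.18, -0.19 and -0.29 in YPD. The element of ATP1 and those of the 4 factors lower in pbp1Δ cells in YPL are shown. They were chosen because 1 of the 9 subunit genes and most of the listed factors hold it. The capitals mark the match, and the sequences are the gene strand, from the RefSeq R64 assembly (strain S288C, not CEN.PK).
ATP1, chrII:38729-38758, plus strand: tcaaaaagaaaTGTAAATAtagaaatttta
ATP11, chrXIV:43250-43279, minus strand: ttaatgacaccTGTAAATAaaatacgtact
ATP12, chrX:87492-87521, minus strand: tcgaaaatttcTGTAAATAaacatgattat
FMC1, chrIX:179724-179753, minus strand: tatcagagtttTGTAAATAagtatatatat
ATP25, chrXIII:460745-460770, minus strand: tattaccTGTATATAatatcttaatc
The match began 50 nt after the stop codon in ATP1, 56 nt in ATP11, 73 nt in ATP12, 30 nt in FMC1 and 8 nt in ATP25. FMC1 held another match 57 nt after its stop codon. A match of letters does not show that Puf3 binds there.

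The letters CCAAT, the core recognized by the HAP activator complex of respiratory genes, were searched on either strand (ATTGG on the other). From 250 nt before to 50 nt after the start codon they occurred in 2517 of 5753 genes (43.8%) and in 8 of the 9 subunit genes, all but ATP1. In a window of 500 nt before the start codon, chosen after seeing the data, all 9 held them, against 62.8% of all genes. From each of ATP15, ATP16 and ATP14 1 site is shown, because these transcripts had the largest rise in WT cells, the smallest rise, and the lowest pbp1Δ estimate. The capitals mark CCAAT. ATP15 and ATP16 each held a further match, on the other strand, 247 nt before the start codon in ATP15 and after it in ATP16.
ATP15, chrXVI:29934-29963, plus strand: cttttatacgaaCCAATgaaatttgatcct
ATP16, chrIV:442853-442882, plus strand: atagatgcccagCCAATcaaagcgcattat
ATP14, chrXII:722553-722582, minus strand: gccatacacgaaCCAATtatgcatcataaa
These matches began 133, 164 and 197 nt before the start codons of ATP15, ATP16 and ATP14. As descriptions of sequence, they do not show which factors act on these genes.

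Depth ranged from 33651287 to 39476235 reads per library, and no subunit gene had fewer than 3303 reads in any library. The deleted gene PBP1 (YGR178C) was at 0 and 0.928 normalized counts in pbp1Δ cells in YPL and 0 in both pbp1Δ libraries in YPD. WT cells had 11112 and 11202 in YPL and 12686 and 11943 in YPD. The genotypes also differed in mating-type transcripts. The summed level of 7 a-specific genes was 2097 to 2197 normalized counts in pbp1Δ cells against 14330 to 15821 in WT cells in YPL, and 1574 to 1924 against 71534 to 86076 in YPD. That of 4 α-specific genes was 41797 to 45681 in pbp1Δ cells against 2008 to 2215 in WT cells in YPL, and 135758 to 160790 against 1680 to 1705 in YPD. Of the a-specific genes 6 of 7 were called lower in pbp1Δ cells in each medium, by the test described below (4.17% of all genes in YPL and 0.868% in YPD). Of the α-specific genes 3 of 4 were called higher in YPL and 4 of 4 in YPD (0.521% of all genes in YPL and 0.104% in YPD). None of the 11 markers was at 0 in any library. Their summed levels separated pbp1Δ from WT libraries in both media. Effects of the deletion and of a difference in mating type therefore could not be told apart in the genotype comparisons.

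ATP1 and ATP2 encode the α and β subunits of the F1 head, and the catalytic sites lie on β. ATP1 (YBL099W, chrII:37053-38690, R64) had 85403 and 85689 normalized counts in pbp1Δ cells and 86393 and 86753 in WT cells in YPL. In YPD it had 23687 and 20115 in pbp1Δ cells and 28180 and 24495 in WT cells. Every YPL library was above every YPD library, and in each medium the pbp1Δ libraries lay below the WT libraries, in YPL with a ratio of means of 0.988. ATP2 (YJR121W, chrX:647607-649142) had 203516 and 186739 normalized counts in pbp1Δ cells and 174777 and 184808 in WT cells in YPL. In the YPD libraries it had 66034 and 51772 in pbp1Δ cells and 73095 and 61720 in WT cells. The pbp1Δ libraries were above those of WT in YPL and overlapped them in YPD, where replicate 1 was higher than replicate 2 in both genotypes. On the log2 scale the replicates of ATP2 in YPD differed by 0.35 in pbp1Δ cells and 0.24 in WT cells.

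The central stalk is built from γ, δ and ε, the products of ATP3, ATP16 and ATP15. ATP3 (YBR039W, chrII:315575-316510), the rotating shaft, had 45097 and 54721 normalized counts in pbp1Δ cells and 47682 and 47873 in WT cells in YPL. Its YPD values were 13718 and 13190 in pbp1Δ cells and 15155 and 14688 in WT cells. The WT libraries in YPL lay between the pbp1Δ libraries, which differed from each other by 0.28 on the log2 scale. ATP16 (YDL004W, chrIV:443029-443511), at the foot of the shaft, had 23965 and 27863 normalized counts in pbp1Δ cells and 26338 and 26085 in WT cells in YPL. Its YPD values were 9445.5 and 9041.0 in pbp1Δ cells and 10906 and 10337 in WT cells. As for ATP3, the genotypes overlapped in YPL, and the pbp1Δ libraries were lower in YPD. ATP15 (YPL271W, chrXVI:30079-30267), the smallest F1 subunit, had 32014 and 32722 normalized counts in pbp1Δ cells and 31742 and 31252 in WT cells in YPL. In YPD its values were 7442.4 and 8074.4 in pbp1Δ cells and 7410.1 and 7973.2 in WT cells. The ratio of the pbp1Δ mean to the WT mean was 1.03 in YPL and 1.01 in YPD, where the genotypes overlapped.

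In the peripheral stalk, ATP5 encodes OSCP, which joins the stalk to the top of the head. ATP5 (YDR298C, chrIV:1058176-1058814) had 39375 and 43910 normalized counts in pbp1Δ cells and 40273 and 41073 in WT cells in YPL. Its YPD values were 12404 and 12333 in pbp1Δ cells and 13573 and 13462 in WT cells. The genotypes overlapped in YPL, and in YPD the pbp1Δ libraries were the lower ones. ATP4 (YPL078C, chrXVI:408010-408744) encodes subunit b, which anchors the stalk in the membrane. It had 43196 and 42078 normalized counts in pbp1Δ cells and 44421 and 43539 in WT cells in YPL. In YPD it had 13896 and 12868 in pbp1Δ cells and 16007 and 15180 in WT cells, so that the pbp1Δ libraries were below those of WT in both media. ATP7 (YKL016C, chrXI:407465-407989) encodes subunit d, a part of the stalk outside the membrane. It had 39230 and 43212 normalized counts in pbp1Δ cells and 39226 and 39643 in WT cells in YPL. Values in YPD were 10538 and 10407 in pbp1Δ cells and 11223 and 11884 in WT cells, with overlap in YPL and lower pbp1Δ libraries in YPD.

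ATP14 (YLR295C, chrXII:721999-722373) encodes subunit h of the peripheral stalk. It had 12520 and 12894 normalized counts in pbp1Δ cells and 15456 and 15544 in WT cells in YPL. Values in YPD were 3683.8 and 4034.7 in pbp1Δ cells and 4572.4 and 5191.1 in WT cells. The pbp1Δ libraries were below the WT libraries in both media. The gap was wider than the distance between replicates in YPL, but in YPD it was smaller than the distance between the WT replicates. In YPD replicate 2 was higher than replicate 1 in both genotypes, and pbp1Δ was below WT at each replicate number. Each of the 9 genes has a single coding segment in the annotation and overlaps no other gene.

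**Figure D1:**
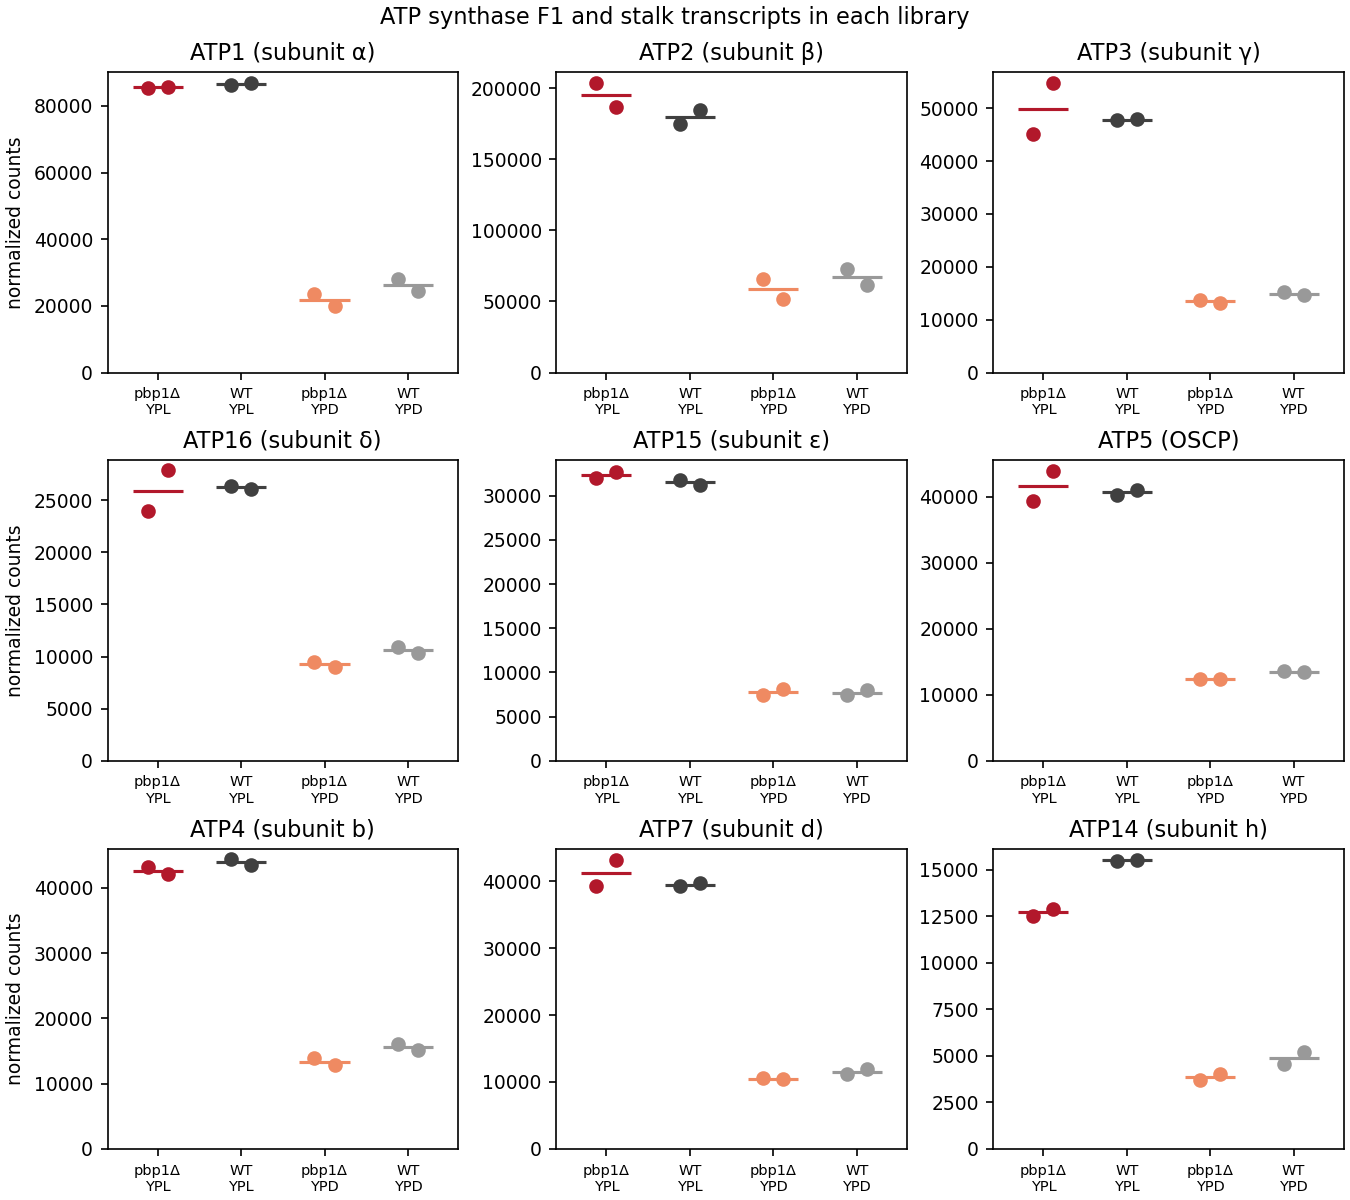
Normalized counts (linear axis from 0) of the 9 F1 and stalk genes in each library, in pbp1Δ and WT cells in YPL and then in YPD. Points are libraries, replicate 1 left of replicate 2, and lines are group means of 2 libraries; the YPL points lie above the YPD points in every panel, and the pbp1Δ points of ATP1, ATP4 and ATP14 lie below those of WT in both media.

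The first question was how the 9 transcripts responded to lactate. Values were compared on the log2(normalized count + 1) scale in limma, in 1 model of the 4 groups. A gene counted as called if its log2 fold change exceeded 0.58 in either direction and its p, adjusted over all 5759 genes by Benjamini-Hochberg, was under 0.05. In pbp1Δ cells 9 of 9 were called higher in YPL than in YPD, where 18.1% of all genes were called higher. In WT cells 9 of 9 were called higher, where 19.3% of all genes were. The YPL libraries of all 9 were above the YPD libraries in each genotype, as held for 37.6% of all genes in pbp1Δ cells and 38.5% in WT cells.

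The median log2 fold change of the 9 genes was 1.75 in pbp1Δ cells and 1.67 in WT cells, while that of all genes tested was 0.011 in pbp1Δ cells and -0.0012 in WT cells. By size of the rise the 9 genes took places 240 to 410 of 5759 in pbp1Δ cells and places 236 to 540 in WT cells. They thus stood together among the risers without being at the top. ATP15, the ε subunit, rose the most, with a log2 fold change of 2.06 ± 0.086 (SE) in pbp1Δ cells (adjusted p = 2.32e-05) and 2.03 ± 0.086 in WT cells (adjusted p = 2.98e-05). ATP16, the δ subunit of the same stalk, rose the least, by 1.48 ± 0.099 in pbp1Δ cells (adjusted p = 0.000107) and 1.30 ± 0.099 in WT cells (adjusted p = 0.000142). In the head, ATP1 rose by 1.97 ± 0.117 in pbp1Δ cells (adjusted p = 6.9e-05) and 1.72 ± 0.117 in WT cells (adjusted p = 0.000111). ATP2 rose by 1.74 ± 0.154 in pbp1Δ cells (adjusted p = 0.000274) and 1.42 ± 0.154 in WT cells (adjusted p = 0.00059). The other 5 lay between these, ATP7 at 1.97 in pbp1Δ cells and 1.77 in WT cells, ATP3 at 1.88 and 1.68, ATP5 at 1.75 and 1.59, ATP14 at 1.72 and 1.67, and ATP4 at 1.67 and 1.496. Adjusted p-values of the 9 genes ranged from 2.32e-05 to 0.000274 in pbp1Δ cells and from 2.98e-05 to 0.00059 in WT cells.

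Together, the 9 transcripts took 1.472% and 1.543% of all normalized counts in the pbp1Δ libraries and 1.471% and 1.498% in the WT libraries in YPL. In YPD they took 0.429% and 0.382% in the pbp1Δ libraries and 0.455% and 0.430% in the WT libraries. These are shares of the poly-A RNA of a culture, in which a change in the share of cells of a kind and a change in RNA per cell cannot be told apart.

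**Figure D2:**
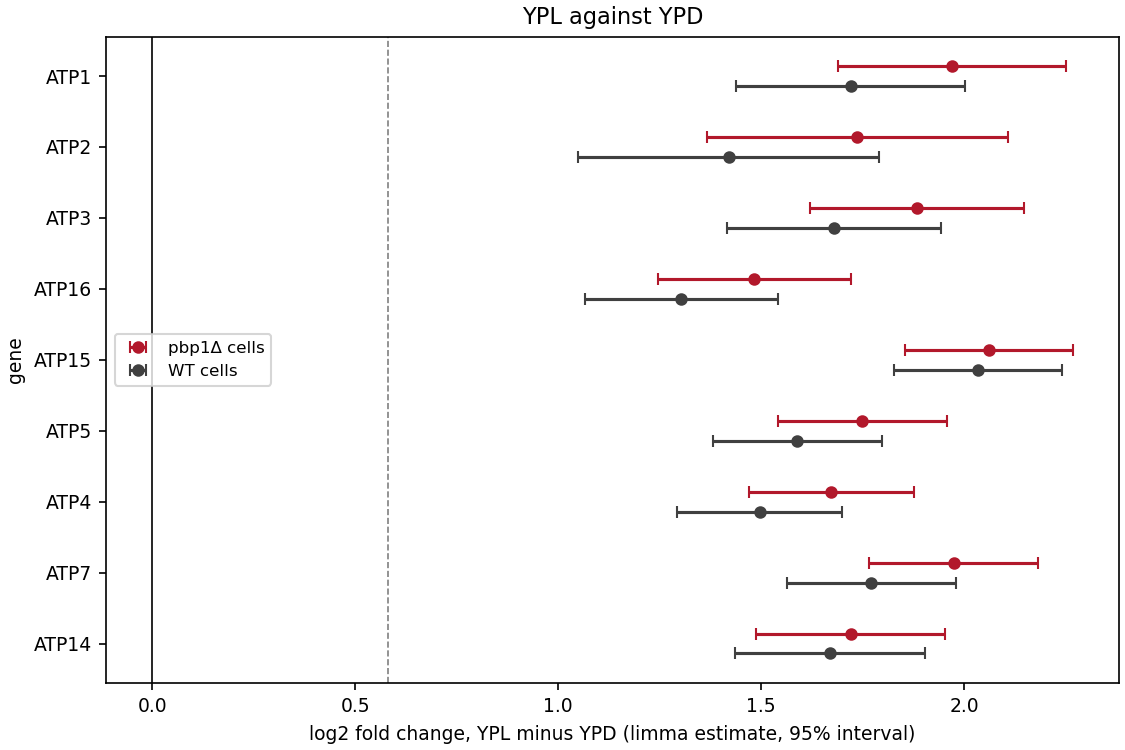
Log2 fold change of YPL over YPD (limma estimate with 95% interval) for each of the 9 genes, in pbp1Δ and in WT cells. Dashed line, the fold change threshold of 0.58; every interval lies above it, and estimates run from 1.48 to 2.06 in pbp1Δ cells and from 1.30 to 2.03 in WT cells.

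The second question was whether these transcripts differed between pbp1Δ and WT cells, a contrast that also carries the difference in mating-type transcripts. In YPL 0 of the 9 genes were called, where 4.69% of all genes were called in either direction. At an unadjusted p under 0.05 there was 1 of 9, ATP14, against 17.8% of all genes. The median log2 fold change of pbp1Δ over WT cells was 0.03 for the 9 genes and -0.0056 for all genes tested, and the estimates ran from -0.29 for ATP14 to 0.12 for ATP2. Without replicate 2 of the pbp1Δ cells in YPL the median was -0.03. The pbp1Δ libraries were both above those of WT for 2 genes, ATP2 and ATP15 (27.5% of all genes), and both below for 3, ATP1, ATP4 and ATP14 (30.1% of all genes).

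In YPD 0 of the 9 were called, where 0.972% of all genes were. At an unadjusted p under 0.05 there were 2 of 9, ATP14 and ATP4, against 8.2% of all genes. The median log2 fold change was -0.20, beside -0.018 for all genes tested, and the estimates ran from -0.34 for ATP14 to 0.01 for ATP15. After each library was centred on its median the 9 genes had a median of -0.13, beside 0.052 for all genes tested. Both pbp1Δ libraries were below those of WT for 7 of the 9 genes, all but ATP2 and ATP15 (17.8% of all genes), and both were above for 0 (13.7% of all genes). The YPD libraries with the same replicate number deviated together across all genes (correlation 0.855), and genes measured in the same libraries are not independent replicates.

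ATP14 had the lowest estimate of the 9 in both media. In YPL it was -0.29 ± 0.097 (SE), with a 95% interval from -0.52 to -0.05, an unadjusted p of 0.0233 and an adjusted p = 0.189 in limma. In YPD it was -0.34 ± 0.097, with an interval from -0.57 to -0.10, an unadjusted p of 0.0117 and an adjusted p = 0.275. Its fold change was thus below the threshold in both media, and its adjusted p above 0.05. ATP4, which shares the peripheral stalk with ATP14, was at -0.04 in YPL (interval -0.25 to 0.16) and -0.22 in YPD (interval -0.42 to -0.02, adjusted p = 0.522). For ATP2, the catalytic subunit, the estimate was 0.12 in YPL (interval -0.25 to 0.49) and -0.20 in YPD (interval -0.57 to 0.17), the widest intervals of the 9. In this fit of all 8 libraries the 95% intervals of the 9 genes lay between -0.57 and 0.49, inside the fold change threshold of 0.58 in either direction. They did not stay inside it when 1 library was left out, where 20 of 144 intervals, those of ATP1, ATP2 and ATP14, went past it (lowest bound -0.82, highest 0.68).

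**Figure D3:**
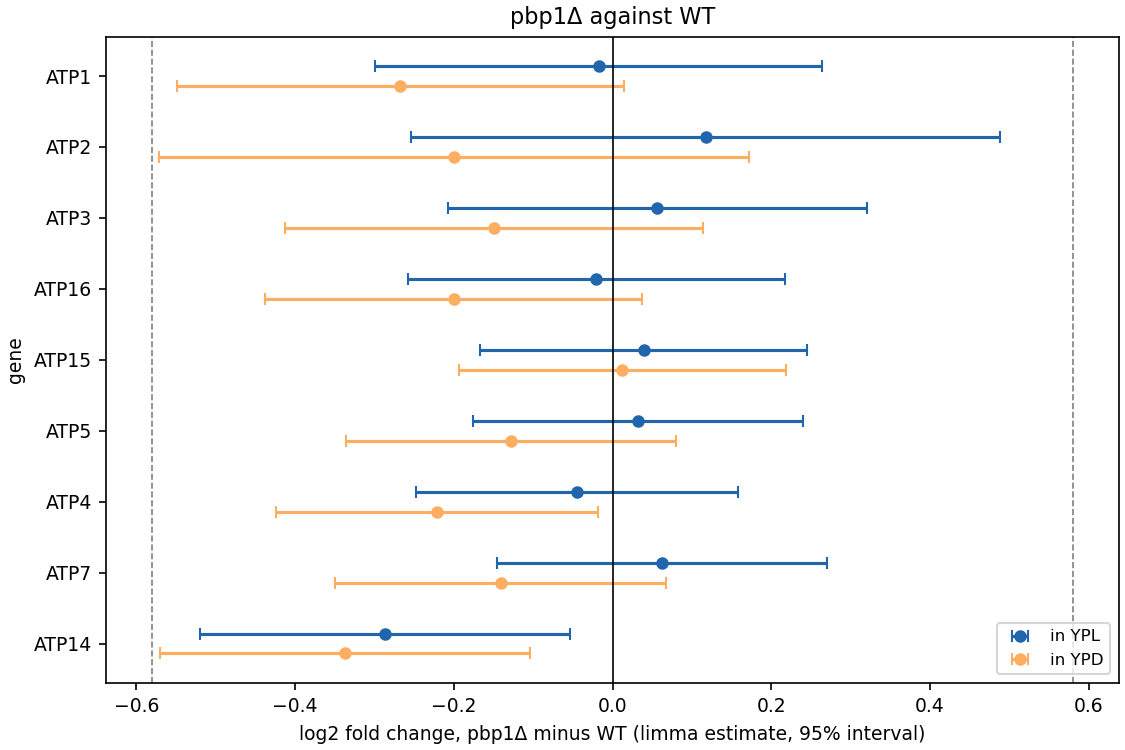
Log2 fold change of pbp1Δ over WT cells (limma estimate with 95% interval) for each of the 9 genes, in YPL and in YPD. Dashed lines, the fold change threshold of 0.58 in either direction; no interval reaches it in this fit of all 8 libraries, and those of ATP14 lie below 0 in both media.

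The response to lactate was then compared between genotypes by the interaction, the log2 fold change of YPL over YPD in pbp1Δ cells less that in WT cells. The estimate was above 0 for all 9 genes, from 0.03 for ATP15 to 0.32 for ATP2, with a median of 0.18 beside 0.0094 for all genes. By adjusted p alone 0 of 9 were called, where 0.0695% of all genes were, and at an unadjusted p under 0.05 there were 0 of 9, against 7.02% of all genes. Adjusted p-values ran from 0.874 to 1.0. Without replicate 2 of the pbp1Δ cells in YPL the median was 0.08, and 2 genes had estimates below 0 in 2 of the fits that left out a library, ATP14 (lowest -0.04) and ATP15 (lowest -0.03).

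Levels of different genes were compared per kb of coding length, since a longer transcript yields more reads. In YPL ATP15 was the highest of the 9 at 171261 ± 2649 normalized counts per kb in pbp1Δ cells and 166652 ± 1835 in WT cells (SD, n = 2). ATP15 has only 189 nt of coding sequence, so its level per kb depends more on untranslated length than that of the others. ATP2 came next at 127036 ± 7723 in pbp1Δ cells and 117053 ± 4618 in WT cells, and ATP7 followed at 78516 ± 5363 and 75113 ± 561. The lowest was ATP14, at 33886 ± 704 in pbp1Δ cells and 41334 ± 166 in WT cells. The other 5 lay close together, from 52226 (ATP1) to 65168 (ATP5) in pbp1Δ cells and from 51044 (ATP3) to 63651 (ATP5) in WT cells. In WT cells each gene was above the next in both YPL libraries, in the order ATP15, ATP2, ATP7, ATP5, ATP4, ATP16, ATP1, ATP3 and ATP14. In pbp1Δ cells the libraries overlapped between ATP4, ATP16 and ATP3 and between ATP16, ATP3 and ATP1, while ATP4 was above ATP1 in both.

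Among 5768 genes ranked by level per kb, ATP15 took places 9 to 13 in the pbp1Δ libraries and 10 to 11 in the WT libraries in YPL. ATP14 took places 225 to 234 in pbp1Δ libraries and 166 to 190 in WT libraries in YPL. In YPD ATP15 and ATP2 were the highest and overlapped, at 41050 ± 2365 and 38348 ± 6565 normalized counts per kb in pbp1Δ cells and 40697 ± 2107 and 43885 ± 5236 in WT cells. ATP14 was again the lowest, at 10291 ± 662 in pbp1Δ cells and 13018 ± 1167 in WT cells. The α and β subunits alternate in the F1 head in equal number. The level of ATP2 per kb was 2.54 and 2.32 times that of ATP1 in pbp1Δ cells and 2.16 and 2.27 times in WT cells in YPL. In YPD the ratio was 2.97 and 2.74 in pbp1Δ cells and 2.77 and 2.69 in WT cells, above every YPL value. ATP14 was at 0.568 and 0.601 of the level of ATP4 per kb in pbp1Δ cells and at 0.682 and 0.700 in WT cells in YPL.

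**Figure D4:**
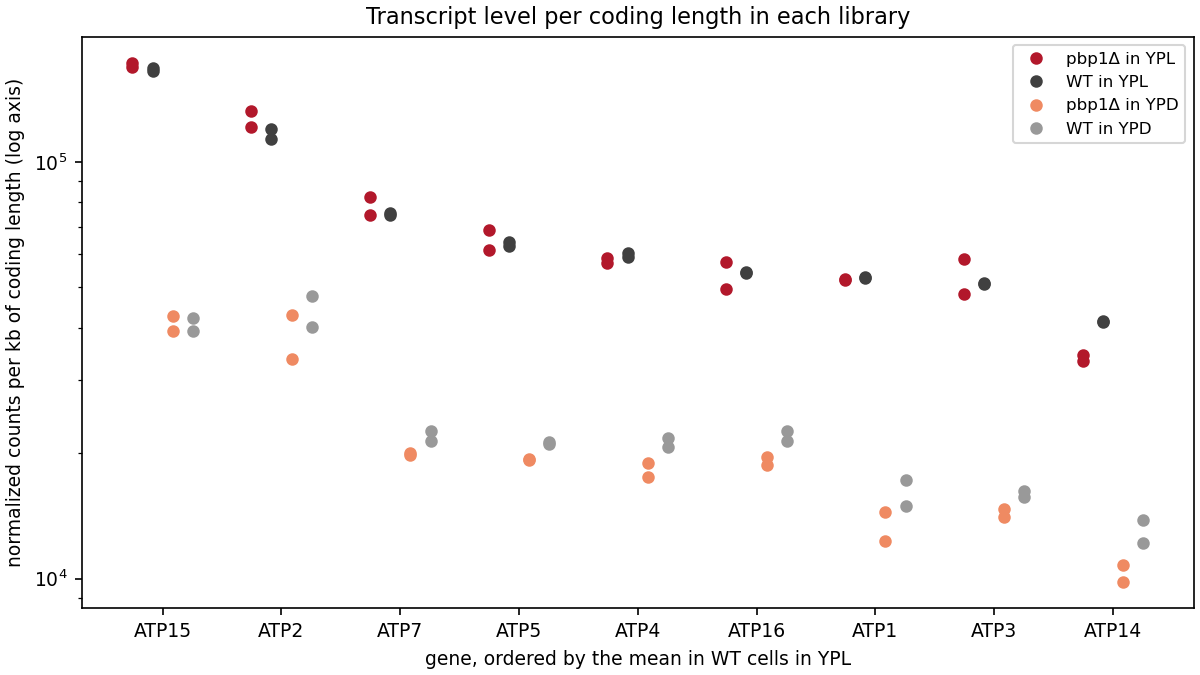
Normalized counts per kb of coding length (log axis) of the 9 genes in each library, ordered by the mean in WT cells in YPL. Points are libraries in pbp1Δ and WT cells in YPL and in YPD; ATP15 and ATP2 are the highest and ATP14 is the lowest in each group.

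The members also shifted against one another. These shifts were picked out after their values were seen, and are given without a test, as the log2 level of a gene less the mean of the other 8. Between YPL and YPD ATP15 gained 0.29 in pbp1Δ cells and 0.45 in WT cells, while ATP16 lost ground, with -0.36 in pbp1Δ cells and -0.37 in WT cells. ATP7 gained 0.19 in pbp1Δ cells and 0.16 in WT cells, and ATP4 shifted by -0.15 in both genotypes. ATP1 gained 0.18 in pbp1Δ cells and 0.10 in WT cells. For these 5 genes the YPL and YPD libraries did not overlap in either genotype, and the share of all genes for which that holds on this scale was not computed. For ATP1 in WT cells the gap was narrow, with 1.085 and 1.082 in YPL against 1.080 and 0.888 in YPD. Between pbp1Δ and WT cells, ATP14 shifted by -0.31 in YPL, where the libraries did not overlap, and by -0.18 in YPD, where they did. ATP15 shifted by 0.05 in YPL and 0.22 in YPD, with no overlap in either medium.

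The 9 profiles over the 8 libraries were compared with all other tested genes by the root mean square difference of log2 values, each gene centred on its own mean. The closest to the mean profile of the 9 were MIC10, a subunit of the complex that shapes cristae junctions (0.032), COX6, a cytochrome c oxidase subunit (0.044), and RIP1, the iron-sulfur protein of complex III (0.058). INH1, an inhibitor of F1 (0.071), and ATP17, a membrane subunit of ATP synthase (0.072), followed. All these profiles share the contrast between media. Each member was set against the mean profile of the other 8, and that distance ran from 0.048 for ATP5 to 0.212 for ATP15.

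The rest of the enzyme and its helpers were read from gene lists. The 5 nuclear-encoded membrane subunits on the list all rose in YPL, with a median log2 fold change of 1.91 in pbp1Δ cells and 1.67 in WT cells. They ran in WT cells from 1.45 for ATP18 (subunit i/j) to 2.09 for TIM11 (subunit e, needed to form dimers of the enzyme). Between pbp1Δ and WT cells in YPL 0 of 5 were called (4.69% of all genes), with a median of -0.27. At an unadjusted p under 0.05 there was 1 of 5 (17.8% of all genes). In YPD 0 of 5 were called (0.972% of all genes), with a median of -0.19 and 1 of 5 unadjusted (8.2% of all genes).

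Of the 3 regulators of F1, INH1 and STF1, which inhibit ATP hydrolysis, rose in YPL. STF1 had log2 fold changes of 3.29 in pbp1Δ cells and 2.96 in WT cells, and INH1 1.72 and 1.55. STF2 was not called (adjusted p = 0.388 in pbp1Δ cells and 0.541 in WT cells). Its YPL values were 7566.3 and 9504.3 normalized counts in pbp1Δ cells and 7668.4 and 9521.2 in WT cells, against 9733.2 and 1124.7 in pbp1Δ cells and 11886 and 1602.0 in WT cells in YPD. The YPD replicates of STF2 thus differed by 3.11 in pbp1Δ cells and 2.89 in WT cells on the log2 scale, with replicate 1 the higher in both. The 9 subunits differed between YPD replicates by at most 0.35. Between pbp1Δ and WT cells 0 of the 3 regulators were called in either medium. At an unadjusted p under 0.05 there were 0 as well (17.8% of all genes in YPL, 8.2% in YPD).

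Of the assembly factors, 3 of 7 were called lower in pbp1Δ cells in YPL, where 4.17% of all genes were called lower, and the median log2 fold change was -0.90 with all 7 below 0. ATP12, a chaperone of the α subunit, had 2905.7 and 2946.1 normalized counts in pbp1Δ cells against 6479.9 and 7403.6 in WT cells in YPL (log2 fold change -1.24 ± 0.102, adjusted p = 0.00205). FMC1, which supports F1 assembly at high temperature, had 1134.5 and 1520.4 against 2788.8 and 2688.5 (-1.06 ± 0.156, adjusted p = 0.0123). ATP11, a chaperone of the β subunit, had 3873.3 and 5310.6 against 8370.9 and 8865.3 (-0.93 ± 0.154, adjusted p = 0.0209). Thus the chaperones of both head subunits were lower in pbp1Δ cells in YPL, while the head subunits themselves were at -0.02 (ATP1) and 0.12 (ATP2) and were not called. The difference between chaperones and subunits was not itself tested. In YPD 1 of 7 was called lower, ATP12 (-0.93 ± 0.102, adjusted p = 0.0162), where 0.868% of all genes were, with a list median of -0.59.

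Of the 6 factors for expression of mitochondrially encoded subunits, 1 was called lower in pbp1Δ cells in YPL and 0 in YPD. The shares of all genes called lower were 4.17% in YPL and 0.868% in YPD. At an unadjusted p under 0.05 there were 3 of 6 in YPL and 1 of 6 in YPD, against 17.8% and 8.2% of all genes. ATP25, needed for a stable transcript of the Fo ring subunit, had 2761.8 and 2632.6 normalized counts in pbp1Δ cells against 4300.9 and 4375.2 in WT cells in YPL (log2 fold change -0.69 ± 0.083, adjusted p = 0.00602). The median of the 6 was -0.30 in YPL and -0.11 in YPD. Over both lists, 4 of 13 genes were called in YPL, all of them lower, against 4.17% of all genes. In fits without 1 library, added after the data were seen, not all 4 calls held. The count called fell in some of these fits and rose in others, as did the count over all genes. Over these fits the YPL log2 fold change ran from -1.34 to -1.15 for ATP12 and from -1.27 to -0.85 for FMC1. It ran from -1.15 to -0.70 for ATP11 and from -0.72 to -0.65 for ATP25. In YPD the call of ATP12 was lost in every fit without 1 library (adjusted p from 0.055 to 0.136) and in the fit of the 4 YPD libraries alone (adjusted p = 0.279), while its log2 fold change stayed between -0.99 and -0.87. With a replicate block within each medium 4 of the 13 were called in YPD, where 214 of all 5759 genes tested were called.

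Between media the median rise of the assembly factors was below that of the subunits. In WT cells 7 of 7 were called higher in YPL, against 19.3% of all genes. Their median log2 fold change was 0.94, from 0.89 for INA22 to 1.39 for ATP12. INA22 belongs to an inner membrane complex that helps join F1 to the peripheral stalk. In pbp1Δ cells 4 of 7 were called higher, against 18.1% of all genes, with a median of 0.71. Of the expression factors 2 of 6 were called higher in pbp1Δ cells (median 0.53) and 5 of 6 in WT cells (median 0.73), where the estimates ran from 0.41 for ATP22 to 1.24 for NCA2, both of which act in expression of Atp6. The interaction was called for 0 of these 13 genes (0.0695% of all genes). At an unadjusted p under 0.05 there were 0 of 7 assembly factors and 1 of 6 expression factors (7.02% of all genes).

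**Figure D5:**
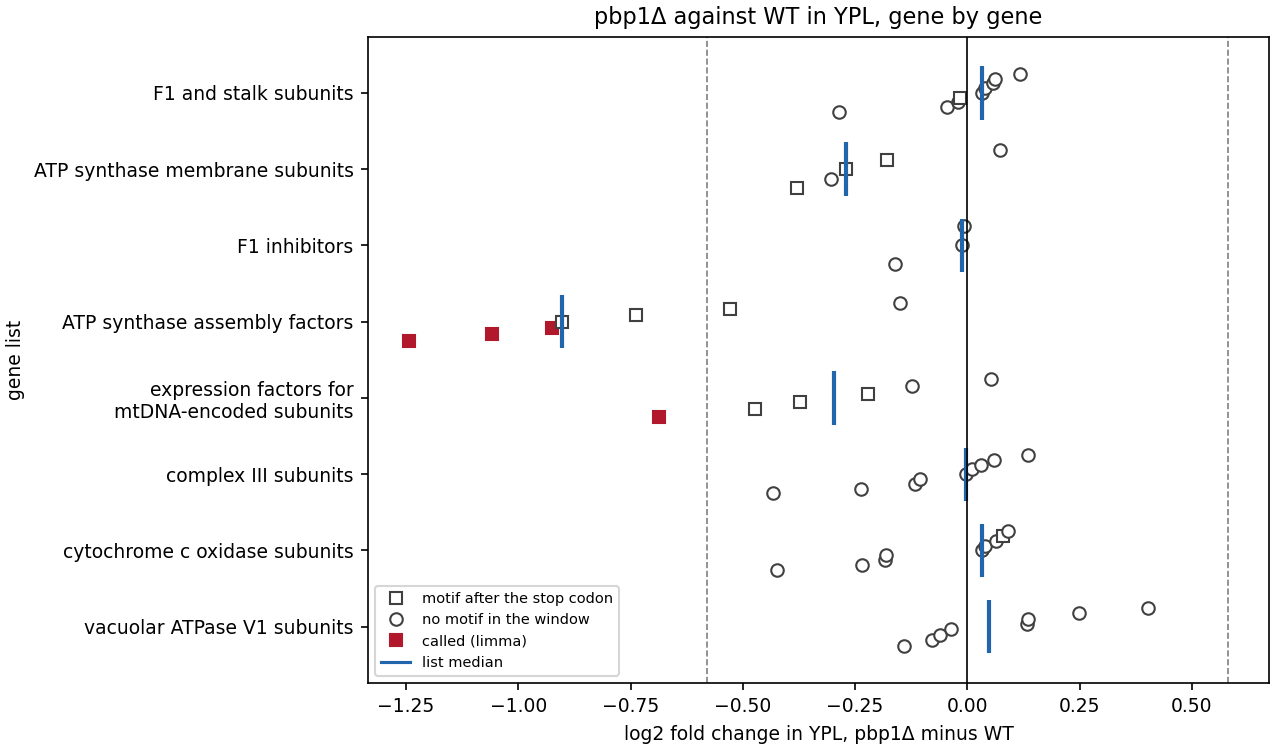
Log2 fold change of pbp1Δ over WT cells in YPL for each gene of 8 lists. Squares, TGTANATA within 200 nt after the stop codon; circles, none in that window; filled, called in limma; blue bars, list medians; dashed lines, the fold change threshold of 0.58. The median is 0.03 for the F1 and stalk subunits and -0.90 for the assembly factors, and the 4 filled symbols are ATP12, FMC1, ATP11 and ATP25.

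The subunits of the respiratory chain rose with those of ATP synthase. All 9 listed complex III subunits were called higher in YPL in both genotypes, against 18.1% of all genes in pbp1Δ cells and 19.3% in WT cells. Their median was 1.93 in pbp1Δ cells and 1.74 in WT cells, from 1.11 (QCR8) to 2.10 (QCR10) in WT cells. Of the 9 cytochrome c oxidase subunits, 9 were called higher in pbp1Δ cells (median 1.49) and 8 in WT cells (median 1.58). In WT cells they ran from 1.26 (COX4) to 2.15 (COX26, adjusted p = 0.0615, not called). Between pbp1Δ and WT cells 0 of 18 were called in YPL and 0 of 18 in YPD, against 4.69% and 0.972% of all genes. At an unadjusted p under 0.05 there were 1 complex III subunit and 0 cytochrome c oxidase subunits in YPL, and 1 of each in YPD. Over all genes the shares at that p were 17.8% in YPL and 8.2% in YPD.

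The V1 part of the vacuolar ATPase, a related rotary enzyme that uses ATP to acidify the vacuole, was read for comparison. Of its 8 genes 4 were called lower in YPL in each genotype, where 15.1% of all genes in pbp1Δ cells and 15.7% in WT cells were called lower. The median log2 fold change was -0.61 in pbp1Δ cells and -0.51 in WT cells, with all 8 estimates below 0, in WT cells from -0.81 (VMA7) to -0.30 (VMA13, not called). Between pbp1Δ and WT cells 0 of 8 were called in either medium. At an unadjusted p under 0.05 there was 1 in YPL (17.8% of all genes) and 0 in YPD (8.2%).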

How the data were processed

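Poly-A RNA from 8 cultures was sequenced. Per the study's methods and the submitters' processing notes, the authors trimmed reads with Trim Galore, aligned them to S288C with STAR 2.7.3a, counted unique reads per gene with featureCounts (Subread 1.6.3) on R64, and normalized them with DESeq2. The strand setting of the counting is not given in the sources used here. What the authors deposited are normalized counts on a linear scale, a signal equal to reads over 1 size factor per library. Values within 0.01 of a whole multiple of 1 read made up 100% of each library. The size of 1 read was itself set from only 58 to 80 low values per library, and no count model was run.

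Values were analysed as log2(normalized count + 1), with a pseudocount of 1, for genes with a mean of at least 10, by a limma 3.58.1 model of all 4 groups under R 4.3.3, with a trend in the variance. The call needed a p under 0.05 after Benjamini-Hochberg adjustment over all genes, together with a log2 fold change above 0.58 in size (the interaction by adjusted p alone). Because 2 libraries against 2 cannot reach such a threshold by permutation, the tests rest on the model. The fit was first run on simulated data with planted changes. There each library varied on its own, whereas same-numbered YPD libraries here deviated together. Python 3.11.15 with pandas 2.3.3, numpy 2.4.6 and matplotlib 3.10.9 made the descriptions and figures. Gene identifiers of all 5774 genes matched the reference.

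The members and the lists (membrane subunits, F1 regulators, assembly factors, expression factors, complex III, cytochrome c oxidase, V1 ATPase and mating-type markers) were chosen with earlier results of these data known. Genes named were all 9 members, PBP1, list genes called between genotypes in YPL, the highest and lowest riser of each list in WT cells, and the 5 genes most like the members. Named besides these were CYT1 (flagged for a closer look), DMO1 (looked at after its values were seen) and ATP19 (for its TGTANATA match). Mitochondrially encoded subunits were not analysed here.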

Additional observations from a re-analysis of the deposited data

Results flagged for a closer look

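RIP1 and CYT1, subunits of complex III, were picked out from the genes of all lists but the markers. In each, both pbp1Δ libraries lay above both WT libraries in YPL and below both in YPD. Of all genes 27.5% had such a gap upward in YPL and 17.8% downward in YPD. The share with both was not computed. RIP1, the iron-sulfur protein, was 38094 and 38516 normalized counts in pbp1Δ cells against 36354 and 37189 in WT cells in YPL, and 10465 and 9644.2 against 11362 and 12060 in YPD. The difference between media (interaction) was 0.28 ± 0.120 on the log2 scale (SE), with an adjusted p = 0.715 in limma. CYT1, cytochrome c1, was 50100 and 46964 in pbp1Δ cells against 44802 and 43497 in WT cells in YPL, and 12712 and 11502 against 12747 and 13714 in YPD. Its interaction was 0.26 ± 0.133, with an adjusted p = 0.791. Neither difference was called.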

How the results depend on the processing

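The count of the 9 subunits called was the same under all alternatives run, 9 of 9 between media in each genotype and 0 of 9 for both genotype comparisons and the interaction. Of 801 estimates of single subunits under alternatives, 788 kept their direction and their side of the threshold, and 13 changed sign, all of them not called. Centring each library on its median shifted the median of all genes to -0.12 and -0.13 between media in pbp1Δ and WT cells. For pbp1Δ over WT it shifted that median from -0.0056 to 0.0563 in YPL and from -0.0185 to 0.052 in YPD. With this centring the YPL estimates of pbp1Δ over WT were 0.0447 for ATP1, 0.0414 for ATP16 and 0.0171 for ATP4. When 1 library was left out, estimates of pbp1Δ over WT ranged from -0.129 to 0.0881 for ATP16, -0.0833 to 0.196 for ATP3, -0.0467 to 0.111 for ATP5 and -0.0075 to 0.132 for ATP7 in YPL, and from -0.0466 to 0.071 for ATP15 in YPD. The interaction ranged from -0.0407 to 0.142 for ATP14 and from -0.0317 to 0.0859 for ATP15.

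With this centring the median of the 9 was -0.13 for pbp1Δ over WT in YPD (-0.18 with TMM scaling), 1.61 for YPL over YPD in pbp1Δ cells and 1.54 in WT cells. Leaving out 1 library gave medians of -0.24 to -0.13, 1.75 to 1.91 and 1.595 to 1.674 for these, and 0.0814 to 0.253 for the interaction. Counts over all genes moved more. In YPL the 270 genes called became 457 in a fit of the 4 libraries alone and 151 at a log2 fold change of 1, and in YPD the 56 became 14 and 26, and 29 with centring. Between media a threshold of 1 left 1034 genes in pbp1Δ and 1128 in WT cells. Without 1 library there were 61 to 277 genes in YPL (61 and 89 without replicate 2 or 1 of WT, 118 without replicate 1 of pbp1Δ) and 15 to 19 in YPD.

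Same-numbered libraries of the genotypes correlated at 0.855 in YPD and 0.243 in YPL. Those of the media correlated at -0.217 in WT and -0.02 in pbp1Δ cells. The main fit did not pair the numbers, so the deviation shared by the genotypes in YPD stayed in its error. A replicate block within each medium gave 503 genes called in YPL, 214 in YPD and 360 for the interaction, where 4 were called without it. No call of a subunit changed with the block. For ATP14 this block gave adjusted p-values of 0.0163 in YPL and 0.0149 in YPD, so that there only the fold change, -0.29 and -0.34, fell short of a call.

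The count models planned on recovered reads were not run, since the low values that set the size of 1 read were judged too few. Intervals between genotypes also passed the fold change threshold for ATP1, ATP2 and ATP14 in the fit of the 4 libraries compared (4 of 18) and for ATP14 with no variance trend (1 of 18). A fit without a library assumes that the lone replicate varies like the other groups. Search windows of 100 and 300 nt for TGTANATA gave 1 and 3 of the 9 genes.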

Other observations

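YJR120W (DMO1) lies upstream of ATP2 on the same strand and ends 130 nt before its start codon. It was looked at after its values were seen, as it was eighth among genes most like the subunits (root mean square difference 0.101). DMO1 had 7702.5 and 6901.4 normalized counts in pbp1Δ cells and 7929.6 and 8403.4 in WT cells in YPL. In YPD it had 2401.2 and 2222.3 in pbp1Δ cells and 2821.5 and 2647.1 in WT cells. How much of this signal comes from transcripts that run on into ATP2 was not tested.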
